A study of Arabidopsis thaliana with 4 samples.

Results

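The 46 genes described here carry the nuclear auxin response of Arabidopsis thaliana: 29 Aux/IAA repressors, 12 ARF transcription factors and 5 TIR1/AFB receptors, out of 27416 gene models in all. They were chosen by locus identifier, from IAA1 (AT4G14560) to AFB5 (AT5G49980), and all 46 were present. Auxin is a growth hormone that acts as a molecular glue between a TIR1/AFB receptor, an F-box subunit of a ubiquitin ligase, and an Aux/IAA protein, which is then degraded. Without auxin, Aux/IAA proteins hold ARF factors on their target promoters and bring in TOPLESS corepressors. Many Aux/IAA genes are themselves ARF targets, and the pathway is known for driving hypocotyl elongation and apical hook growth in dark-grown seedlings.

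All seedlings were wild type of the accession Col-0, with 2 samples under each light regime: red light at 60 µmol per square metre per second and darkness. Both groups were sown on medium with 1% sucrose, kept at 4 °C for 4 days and exposed to white light for 12 h. The next 4 days were spent under either condition, for a growth time of 4.5 days, and poly(A) RNA of the seedlings was sequenced. The deposited files held 1 column of reads and 1 of RPKM (reads per kilobase of coding sequence, scaled to the total of the column) for each condition, with no replicate named or separated. No value below has a replicate error, no p-value was computed, and no difference has a replicate check. Ranges in brackets are exact 95% intervals from the read counts alone, and how far seedling batches differ cannot be seen from these files.

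The red-light column summed to 33521717 reads and the dark column to 41106535. The median member had 1281 reads in red light, against 1566 in dark. A gene was called higher or lower at a 2-fold difference of RPKM + 1, if the condition with more of it reached 10 RPKM. As a check of the labels, PORA, a protochlorophyllide oxidoreductase known to be abundant in etiolated tissue, stood at 55.6 RPKM in red light, against 878 RPKM in dark. PHYA, the gene of a photoreceptor that is abundant in dark, stood at 159 RPKM in red light, against 601 RPKM in dark. HEMA1, an early enzyme of chlorophyll synthesis, stood at 564 RPKM in red light, against 80.4 RPKM in dark. Of 5 reference genes often used for normalization, 0 were called, and their ratios of red light to dark ran between 0.848 and 1.20.

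Red light went with lower transcript levels of a small group of Aux/IAA genes and with a higher level of 1 ARF gene, while the other abundant repressors and all 5 receptors were not called. IAA20, IAA29, IAA19, IAA6 and IAA32 were called lower and ARF8 was called higher. The 5 lower calls compare with 676 of all 12625 genes that reached 10 RPKM (5.35%), and the 1 higher call with 1097 of them (8.69%). Calls in either direction made up 14.0% of those genes, and 6 of the 36 members that reached 10 RPKM (16.7%) were called. IAA11, IAA29, IAA32 and ARF8 passed the minimum in 1 condition alone, so such members could enter the count only by a level that was higher there. Of all 46 members, 32 had a lower value in red light and 14 a higher value. Among those of at least 10 RPKM the lower values made up 69.4% for members and 58.8% for all genes. The median log2 change of RPKM + 1 was -0.24 over all 46 members, beside 0 over all gene models, unexpressed ones included. Over those of at least 10 RPKM it was -0.26 for members and -0.11 for all genes.

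Seedlings mix organs whose proportions may differ between the conditions, and in such bulk samples fewer cells of a type and less RNA per cell cannot be told apart. Of 8 root genes, 1 reached 10 RPKM and could be called, PYK10, which was not, and the ratios of the 8 ran between 0.747 and 1.76. The summed level of these root genes was 3303 RPKM in red light, against 2557 RPKM in dark, nearly all of it from PYK10, and none was at 0. The root meristem genes PLT1, PLT2 and WOX5 were below 2 RPKM in both columns. Of 5 leaf and shoot apex genes, 2 reached 10 RPKM and 1 was called higher, FIL, a leaf polarity gene, at 72.1 RPKM in red light, against 32.3 RPKM in dark. The summed level of that list was 232 RPKM in red light, against 245 RPKM in dark, and none was at 0. Their part in the differences between the conditions was not tested.

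**Figure D1:**
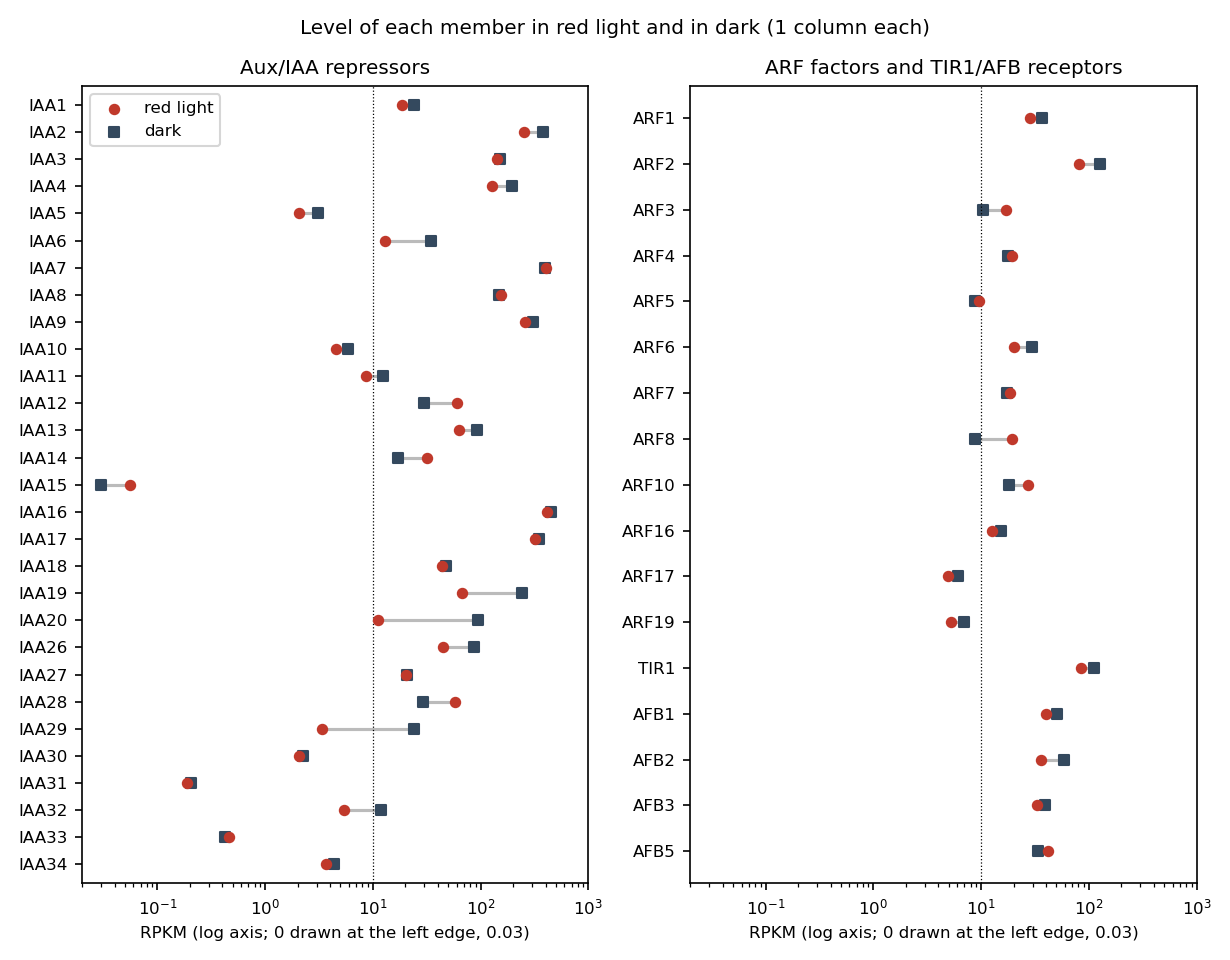
Level of each of the 46 members in RPKM on a log axis, in red light (red circles) and in dark (dark squares), 1 deposited column each; a grey line joins both values and the dotted line marks the 10 RPKM minimum. IAA20, IAA29 and IAA19 have the widest gaps, at 11.2, 3.35 and 67.6 RPKM in red light and 94.5, 24.1 and 240.2 RPKM in dark.

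IAA20 (AT2G46990) showed the largest fold difference of the 44 members with a ratio. It had 198 reads or 11.2 RPKM in red light, against 2050 reads or 94.5 RPKM in dark, 8.44-fold lower (7.29 to 9.82) and a log2 change of -2.97. IAA20 is an Aux/IAA protein without the auxin-sensing degron and is known in Arabidopsis as a long-lived protein. Its gene, with 3 coding exons, occupies positions 19307714 to 19309071 of chromosome 2, plus strand. By level it had rank 19 of the 29 repressors in red light and rank 10 in dark. Its close relatives were nearly silent: IAA30 stood at 2.07 RPKM in red light, against 2.25 RPKM in dark. IAA31 had 3 reads in red light, against 4 in dark. Of these 3 genes, IAA20 alone had a high level in dark.

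IAA29 (AT4G32280) came next. It had 85 reads or 3.35 RPKM in red light, against 748 reads or 24.1 RPKM in dark, 7.18-fold lower (5.73 to 9.09). IAA29 is known as a direct target of the phytochrome-interacting factors (PIFs), transcription factors that accumulate in dark. The gene has 4 coding exons and spans 15583332 to 15584903 of chromosome 4, plus strand.

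IAA19 (AT3G15540), also called MSG2, is known from mutants whose hypocotyls fail to bend, and was the most abundant of the genes called. It had 1347 reads or 67.6 RPKM in red light, against 5866 reads or 240.2 RPKM in dark, 3.55-fold lower (3.35 to 3.77). Its relative IAA6 (AT1G52830), also known as SHY1, was lower as well, at 13.0 RPKM in red light (249 reads), against 34.9 RPKM in dark (817 reads), 2.68-fold (2.32 to 3.10). The third member of this clade, IAA5, had 34 reads in red light, against 63 in dark, and its ratio of 0.662 (0.423 to 1.02) was not resolved at this depth. All 3 values were lower in red light, that of IAA5 within counting error, and IAA19 was far above the others in level per length. Each has 3 coding exons, IAA19 within 5264001 to 5265695 of chromosome 3, plus strand, and IAA6 within 19672476 to 19673652 of chromosome 1, minus strand.

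IAA32 (AT2G01200) just passed the rule. It had 105 reads or 5.44 RPKM in red light, against 282 reads or 11.9 RPKM in dark, 2.19-fold lower (1.74 to 2.77), so its counting interval reaches below 2-fold. Its call was lost under 3 other scalings between the columns, at log2 changes of -0.94 to -0.99. IAA32 and IAA34 lack the degron and are known to be stabilised by the receptor kinase TMK1 on the inner side of the apical hook. IAA34 stood at 3.64 RPKM in red light, against 4.32 RPKM in dark, and was not called. The IAA32 gene has 4 coding exons and spans 117969 to 120095 of chromosome 2, plus strand.

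The codons of the degron, the stretch that a receptor and auxin bind, were present in some of the called repressors and absent from others. Each coding sequence was searched in frame for the glycine, tryptophan, proline, proline core, which was found in 23 of the 29 genes, 17 of them with a valine codon in the fifth place. IAA19, IAA6 and IAA29 are among these 17, whereas IAA20 and IAA32 have no such core. Of the 6 genes without it, IAA30, IAA31, IAA33 and IAA34 were below 10 RPKM in both conditions. Of the genes that reached 10 RPKM, 3 of 20 with the core and 2 of 2 without it were called lower, beside 5.35% of all genes, and the difference between these shares was not tested. IAA11, IAA29 and IAA32 reached 10 RPKM in dark alone, so they could enter these counts only with a higher value there. The call of IAA32 was also lost under 5 of 11 alternative settings, some of which could not remove a call. The other hallmark, leucine codons in the alternating pattern that binds TOPLESS, was found within the first 100 codons of 28 genes, all except IAA33. The stretches below are shown because they are what the receptors read in called repressors and in some not called, IAA5 among them at a low level. They run 5′ to 3′ on the coding strand in TAIR10.1, and capitals mark the 5 core codons.
IAA19 (chr3:5264307-5264345, plus strand): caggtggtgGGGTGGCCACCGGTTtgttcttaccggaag
IAA6 (chr1:19673314-19673352, minus strand): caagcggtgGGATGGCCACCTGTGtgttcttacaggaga
IAA5 (chr1:5366266-5366304, minus strand): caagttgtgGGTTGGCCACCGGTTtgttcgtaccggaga
IAA29 (chr4:15583942-15583980, plus strand): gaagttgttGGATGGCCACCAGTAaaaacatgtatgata
IAA7 (chr3:8195568-8195606, plus strand): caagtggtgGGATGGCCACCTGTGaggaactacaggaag
IAA16 (chr3:1289721-1289759, minus strand): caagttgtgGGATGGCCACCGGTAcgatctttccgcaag
IAA12 (chr1:1241058-1241096, plus strand): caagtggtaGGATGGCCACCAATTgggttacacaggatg
In IAA19, IAA6 and IAA5 the stretch lies in the first coding exon, and in the other 4 shown it lies in the second.

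Most repressors with the highest levels had close values in both conditions. IAA16 led both columns, at 410.5 RPKM in red light, against 448 RPKM in dark. IAA7, whose gain-of-function mutant axr2 has a short hypocotyl in dark, stood at 405 RPKM in red light, against 399.9 RPKM in dark, a ratio of 1.01 (0.985 to 1.04). IAA17, known as AXR3, had 319 RPKM in red light, against 347 RPKM in dark. These 3 genes differed by less than 1.1-fold between the conditions. Their relative IAA14, at a lower level, did not share this, with a ratio of 1.85 (1.65 to 2.09). IAA9, known for its role in leaf form, stood at 259 RPKM in red light, against 305 RPKM in dark. IAA8, its relative, had 155 RPKM in red light, against 148 RPKM in dark. IAA3, known as SHY2 from mutants with light-type growth in dark, had 143 RPKM in red light, against 152 RPKM in dark, although 21.2% of its coding sequence lies within the span of a gene on the opposite strand. IAA2 and IAA4 were somewhat lower without being called. IAA2 had 253 RPKM in red light, against 381 RPKM in dark, a ratio of 0.665 (0.641 to 0.690). IAA4 had 128 RPKM in red light, against 194 RPKM in dark, a ratio of 0.663 (0.631 to 0.697). Over the 8 uncalled genes above 100 RPKM in dark, ratios ran between 0.663 and 1.05.

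Summed over the 29 genes, Aux/IAA transcripts came to 2536 RPKM in red light, against 3156 RPKM in dark, a ratio of 0.804. The 5 called genes supplied 101 RPKM of this in red light, against 406 RPKM in dark, or 3.97% of the sum in red light and 12.9% in dark. The other 24 genes summed to 2435 RPKM in red light, against 2750.3 RPKM in dark, a ratio of 0.885. The 5 genes were picked by their lower values in red light. Their smaller share there, and the higher ratio of the rest, therefore follow from that choice. IAA19 alone held 2.67% of the sum in red light, against 7.61% in dark. IAA16 and IAA7 had ranks 1 and 2 in both conditions, whereas IAA19 had rank 9 in red light and rank 6 in dark.

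**Figure D2:**
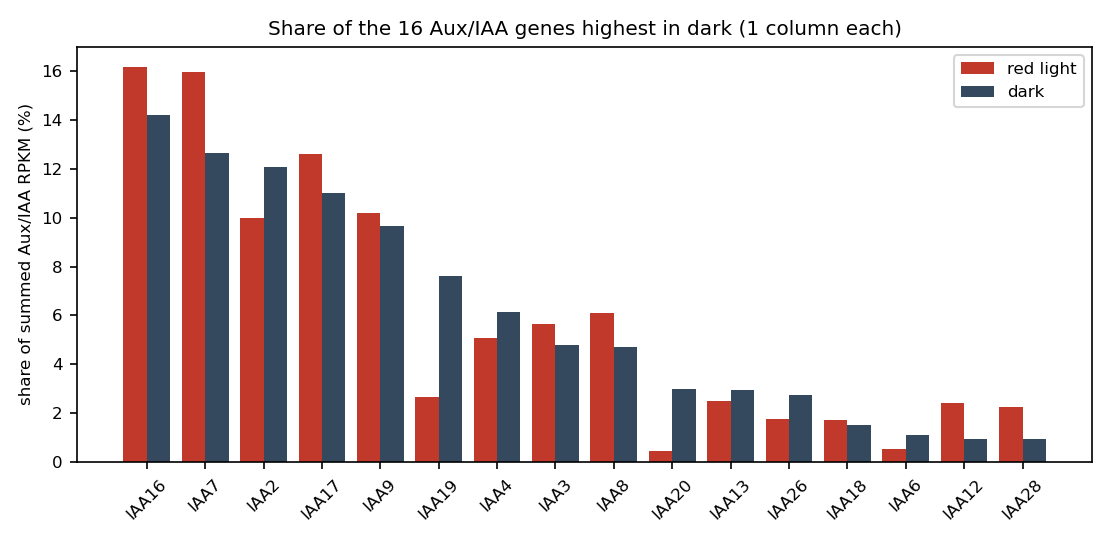
Share of the summed Aux/IAA RPKM (%) held by each of the 16 repressors with the highest dark level, in red light (red, left bars) and in dark (dark, right bars), 1 deposited column each. IAA19 and IAA20 hold 2.67% and 0.441% in red light and 7.61% and 2.99% in dark.

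A few genes stood near the threshold. IAA12, known as BODENLOS, which partners ARF5 in embryonic root formation, had 1464 reads or 60.7 RPKM in red light, against 888 reads or 30.0 RPKM in dark. Its ratio was 2.02 (1.86 to 2.20) and its log2 change 0.99, just short of the limit. IAA28, a repressor of lateral root formation, stood at 57.5 RPKM in red light, against 29.2 RPKM in dark, a ratio of 1.97 (1.78 to 2.18). IAA14, known as SOLITARY-ROOT, stood at 31.7 RPKM in red light, against 17.1 RPKM in dark, a ratio of 1.85 (1.65 to 2.09). Neither IAA12 nor IAA28 was called here, but both were called higher with TMM or DESeq2 scaling, at log2 changes of 1.02 to 1.06. In the lower direction IAA26, also named PAP1 for its association with phytochrome, just missed the rule at 44.7 RPKM in red light, against 86.2 RPKM in dark, a log2 change of -0.93. Its relative IAA18 stood at 43.4 RPKM in red light, against 48.1 RPKM in dark.

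Beside these, IAA13 had 63.4 RPKM in red light, against 92.4 RPKM in dark. IAA11 had 8.70 RPKM in red light, against 12.3 RPKM in dark. These relatives of IAA12 thus had lower values in red light, where IAA12 was higher. IAA1 had 18.7 RPKM in red light, against 23.9 RPKM in dark. IAA27, or PAP2, was close to equal, at 20.5 RPKM in red light, against 20.9 RPKM in dark. The 7 repressors below 10 RPKM in both conditions (IAA5, IAA10, IAA15, IAA30, IAA31, IAA33 and IAA34) ranged up to 4.59 RPKM in red light, against 5.91 RPKM in dark. These highest values were those of IAA10, and 37.8% of its coding sequence lies within the span of a gene on the opposite strand. IAA15 had 1 read in red light and 0 in dark, which allows up to 3 reads, and its coding length of 540 bases in the files differs from 390 in the annotation used here.

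**Figure D3:**
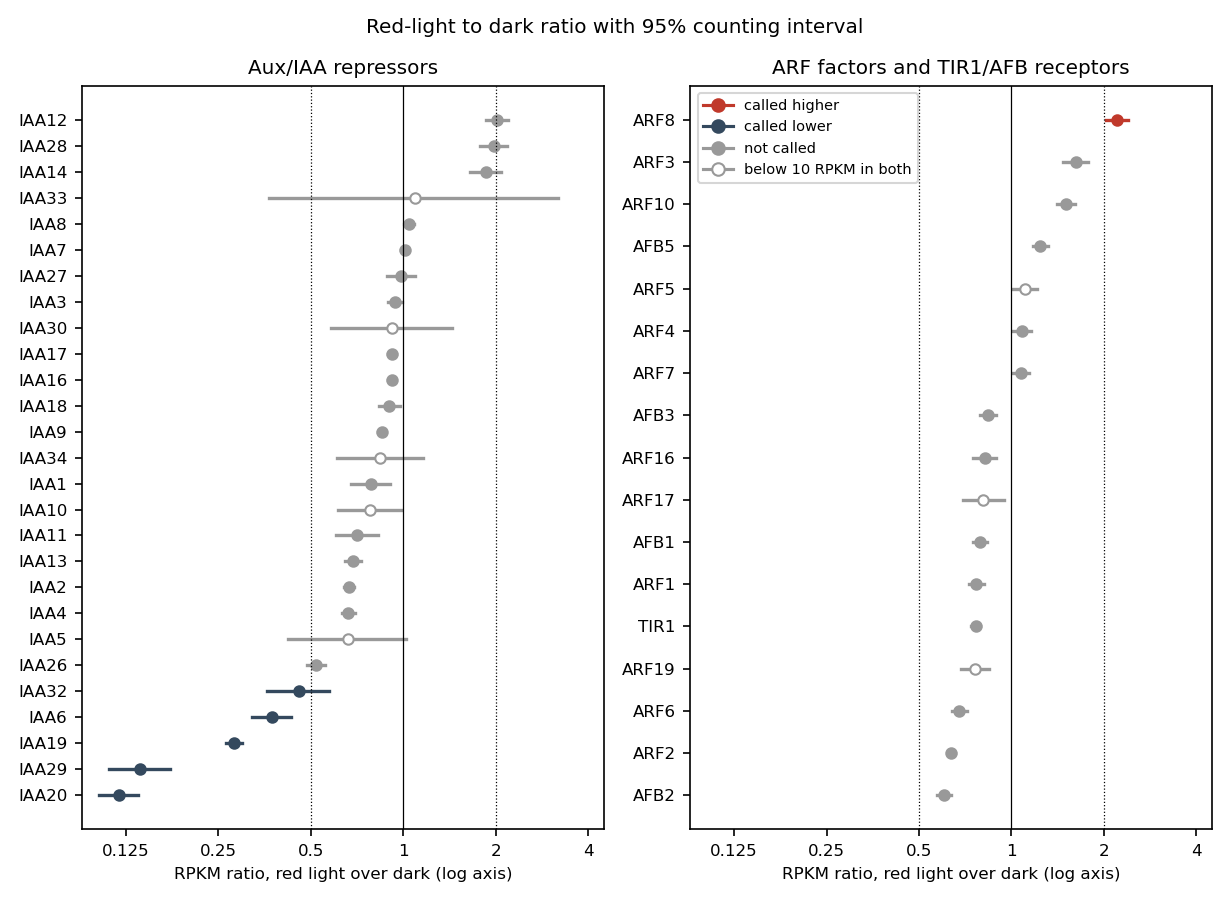
RPKM ratio of red light over dark on a log axis for the 44 members with more than 3 reads in each column, with exact 95% counting intervals; colours mark genes called higher (red), lower (dark blue) or not called (grey), and open circles mark genes below 10 RPKM in both conditions. Dotted lines stand at 0.5 and 2; IAA20 lies farthest left at 0.118 and ARF8 farthest right at 2.21.

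Among the ARF factors, which bind auxin response elements through a conserved domain, ARF8 was called higher. ARF8 (AT5G37020) had 1592 reads or 19.5 RPKM in red light, against 883 reads or 8.82 RPKM in dark, a ratio of 2.21 (2.04 to 2.40) and a log2 change of 1.06. It is an activator of the glutamine-rich class that acts with ARF6 in hypocotyl and flower growth. ARF6 went the other way without being called, at 20.1 RPKM in red light, against 29.8 RPKM in dark, a ratio of 0.676 (0.639 to 0.716). The relatives were at about the same level per length in red light, while ARF6 was well above ARF8 in dark. The ARF8 gene has 14 coding exons and spans 14629453 to 14634454 of chromosome 5, plus strand.

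No other activator was called. ARF7, known as NPH4 for its part in phototropism, had 18.7 RPKM in red light, against 17.4 RPKM in dark. ARF5, or MONOPTEROS, had 9.61 RPKM in red light, against 8.69 RPKM in dark. ARF19, which acts with ARF7 in lateral root formation, had 5.24 RPKM in red light, against 6.88 RPKM in dark. In the coding sequences, glutamine codons made up 6.98% to 15.3% of codons in these 5 activators, against 2.24% to 4.77% in the other 7 ARF members. This is the feature for which the glutamine-rich class is named, and so no separate finding.

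The 7 other ARF members, most of them known as repressors, were not called. ARF2, the most abundant ARF, had 81.7 RPKM in red light, against 128 RPKM in dark, a ratio of 0.638 (0.620 to 0.657). ARF2 is known in Arabidopsis as a repressor whose loss affects seed size and hook growth. ARF1 had 28.2 RPKM in red light, against 36.7 RPKM in dark. ARF3, or ETTIN, a factor of organ polarity, had 16.8 RPKM in red light, against 10.4 RPKM in dark, a ratio of 1.62 (1.47 to 1.78). ARF4, which shares that role, was at 19.4 RPKM in red light, against 17.9 RPKM in dark. ARF10 had 27.1 RPKM in red light, against 18.0 RPKM in dark. ARF16, which acts with ARF10 in the root cap, had 12.6 RPKM in red light, against 15.4 RPKM in dark. ARF17 had 4.94 RPKM in red light, against 6.09 RPKM in dark. The median log2 change over all 12 ARF members was -0.08, with 6 lower and 6 higher values in red light. Over the 9 of at least 10 RPKM the median was 0.10, with 4 lower and 5 higher values, so its sign turned with the minimum.

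The receptors spanned ratios of 0.603 to 1.24. This was the narrowest range of the 3 families, but they are also the smallest family, and a range widens with more genes. TIR1 (AT3G62980), the founding auxin receptor, had 5094 reads or 85.1 RPKM in red light, against 8168 reads or 111 RPKM in dark, a ratio of 0.765 (0.738 to 0.792). AFB2 was the lowest in ratio, at 35.8 RPKM in red light, against 59.4 RPKM in dark (0.603, 0.572 to 0.636). AFB1, which is known for the rapid auxin response of roots, had 39.6 RPKM in red light, against 50.2 RPKM in dark. AFB3 had 32.7 RPKM in red light, against 39.0 RPKM in dark. For AFB1 and AFB3, 23.8% and 36.8% of the coding sequence lies within the span of a gene on the opposite strand, and whether counting used strand was not given in the sources used here. AFB5, the receptor with a preference for picloram-type auxins, was the only one with a higher value, at 42.1 RPKM in red light, against 33.9 RPKM in dark, a ratio of 1.24 (1.18 to 1.31). None of the 5 was called, beside 14.0% of all genes that reached 10 RPKM, and TIR1 was the highest in both conditions.

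The balance between related genes differed between the conditions in several pairs. The ratio between relatives is independent of the scaling between the columns, and 14 pairs had both members at 10 RPKM or more. The ARF8 to ARF6 ratio of RPKM was 0.968 in red light, against 0.296 in dark, a shift of 3.27 (2.95 to 3.61). The IAA12 to IAA13 ratio was 0.957 in red light, against 0.325 in dark, a shift of 2.95 (2.65 to 3.28). The IAA28 to IAA18 ratio was 1.32 in red light, against 0.606 in dark, a shift of 2.18 (1.93 to 2.48). In each of these 3 pairs the gene that was lower in dark came level with or passed its relative in red light. Shifts of 1.84 were seen for ARF10 to ARF16 (1.65 to 2.06) and of 1.83 for IAA14 to IAA7 (1.63 to 2.07). The IAA26 to IAA18 ratio was 1.03 in red light, against 1.79 in dark, a shift of 0.576 (0.520 to 0.638). This shift is below 1 because IAA26, the gene higher in dark, is named first. Here too the related genes were closer in level in red light. The balance of IAA17 to IAA16 was nearly equal, with a shift of 1.00 (0.964 to 1.04), and that of AFB1 to TIR1 at 1.03 (0.967 to 1.10). IAA6 and IAA19, both called lower, differed less, with a shift of 1.33 (1.13 to 1.55). In all, 6 of the 14 pairs shifted by more than 1.5 times, and IAA18 and IAA9 each recur among the pairs. How often other pairs of genes shift as far was not computed. At a 1.5-fold threshold, 15.1% of all single genes of at least 10 RPKM were called higher and 15.3% lower.

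**Figure D4:**
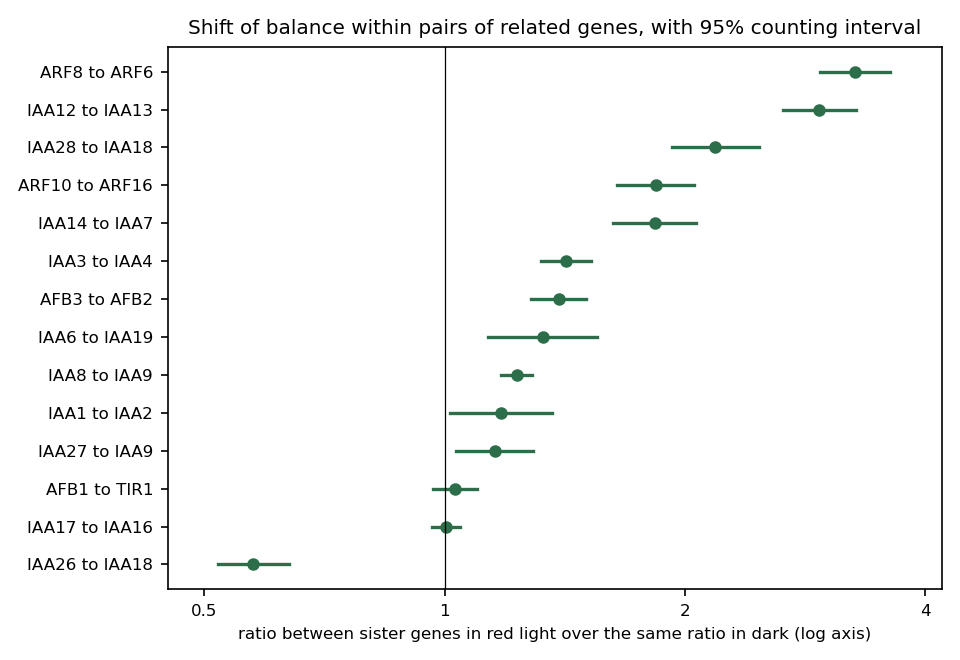
For 14 pairs of related members, the RPKM ratio between both genes in red light divided by the same ratio in dark, on a log axis, with exact 95% counting intervals. ARF8 to ARF6 (3.27) and IAA12 to IAA13 (2.95) lie farthest right, and IAA17 to IAA16 (1.00) lies on the line of no shift.

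Promoter letters were read from the 250 bases before each annotated gene start in TAIR10.1, on both strands, for 26717 genes, 45 of them members. The letters were TGTCTC, the first described auxin response element, TGTCGG, a strong binding sequence of ARF proteins, CACGTG, the G-box, and CATGTG, an E-box that PIF proteins bind. TGTCTC occurred in 10.9% of all windows, in 8 of 28 Aux/IAA windows and in those of IAA6, IAA19, IAA20 and IAA32, 4 of the 5 genes called lower. It occurred in 74 of the windows of all 675 genes called lower in the whole table, a share like that of all windows. CATGTG occurred in 11.2% of all windows, in 16.6% of those 675 windows, and in those of IAA6, IAA19 and IAA32. The IAA32 window overlaps the span of another annotated gene, and the call of IAA32 was lost under other scalings. The G-box occurred in 6.58% of all windows, in 8.44% of the 675, and in 3 Aux/IAA windows, those of IAA7, IAA19 and IAA20. A window with both TGTCTC and the G-box was found for 219 genes (0.820%), of which 2 are members, IAA19 and IAA20. TGTCGG occurred in 4.15% of all windows, in 3.85% of the 675, and in 6 Aux/IAA windows, none of them of a called gene. IAA29 and ARF8 had none of these letters in the window, but in 1000 bases before the start IAA29 had TGTCGG, and ARF8 had TGTCTC and CATGTG. In windows of 1000 bases these letters were common, with TGTCGG in 14.6%, TGTCTC in 39.5% and CATGTG in 37.8% of all genes. Such matches are descriptions of the sequence and not evidence of binding.

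The windows of IAA19, IAA6 and IAA20 are shown because they hold these letters in genes called lower. They run 5′ to 3′ toward the gene, and capitals mark the letters named above.
IAA19 (chr3:5263751-5264000, plus strand): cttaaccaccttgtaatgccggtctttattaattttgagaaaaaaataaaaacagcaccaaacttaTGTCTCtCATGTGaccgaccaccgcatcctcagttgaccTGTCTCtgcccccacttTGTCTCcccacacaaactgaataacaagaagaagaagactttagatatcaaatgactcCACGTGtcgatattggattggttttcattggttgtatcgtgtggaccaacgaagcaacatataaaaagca
IAA6 (chr1:19673653-19673902, minus strand): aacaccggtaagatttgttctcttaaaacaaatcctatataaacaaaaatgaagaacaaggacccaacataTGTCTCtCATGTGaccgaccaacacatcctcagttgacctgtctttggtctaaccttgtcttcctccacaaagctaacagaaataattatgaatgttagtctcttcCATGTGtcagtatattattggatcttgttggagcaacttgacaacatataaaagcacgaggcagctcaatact
IAA20 (chr2:19307464-19307713, plus strand): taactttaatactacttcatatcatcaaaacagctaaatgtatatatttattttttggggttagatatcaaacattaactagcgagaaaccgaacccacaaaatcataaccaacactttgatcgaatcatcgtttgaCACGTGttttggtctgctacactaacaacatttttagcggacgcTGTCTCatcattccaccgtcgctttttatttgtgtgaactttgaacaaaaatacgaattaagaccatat
The IAA19 and IAA6 windows share an unbroken run of 23 bases, taTGTCTCtCATGTGaccgacca, which starts 186 bases before IAA19 and 181 bases before IAA6. It was found in these 2 windows of the 26717. This run was looked for after the values had been seen.

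**Figure D5:**
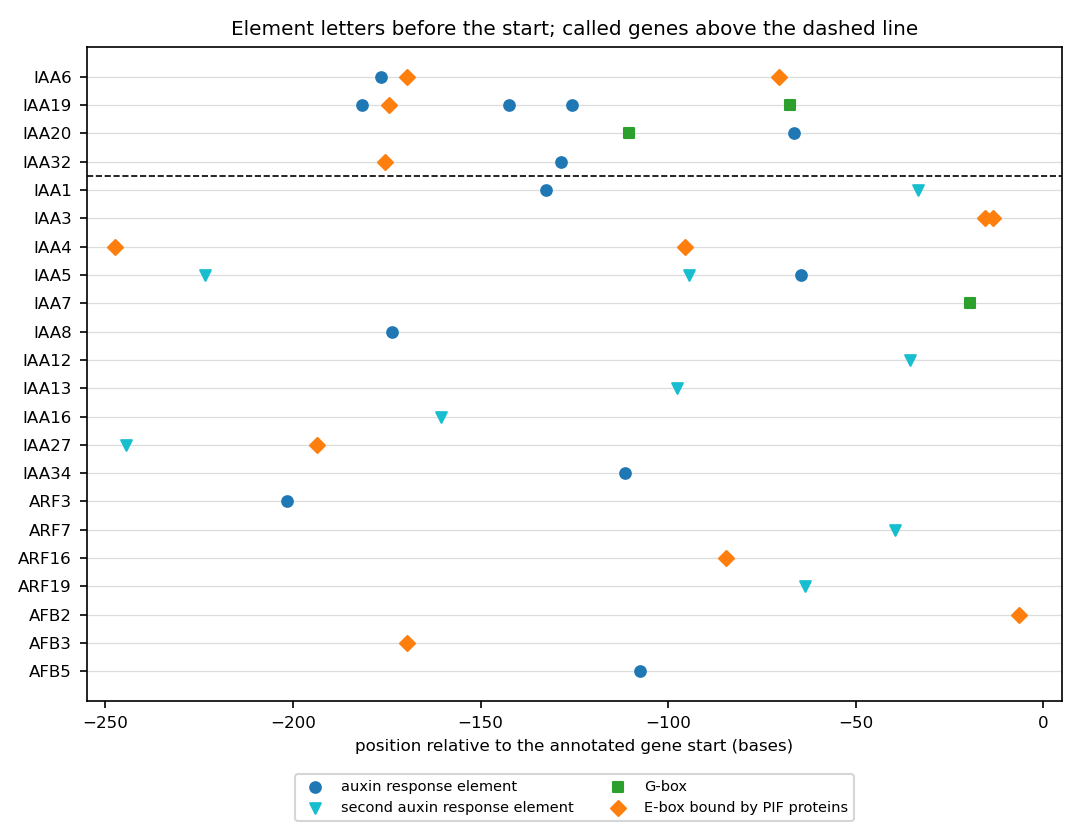
Centres, in bases relative to the annotated gene start, of 4 kinds of element letters in the 250 bases before the start, for the 22 members that hold any; genes called lower or higher stand above the dashed line. IAA19 holds 3 auxin response elements, 1 G-box and 1 E-box, and the remaining 23 members examined, IAA29 and ARF8 among them, hold none.

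Several ARF and receptor transcripts are known to be cleaved through microRNAs, and their coding sequences hold the sites. The mature microRNAs in RefSeq TAIR10.1 are given with the seed, bases 2 to 8, in capitals, and the sites with the bases complementary to the microRNA in capitals, because sites for one microRNA occur in relatives that had different ratios.
miR167a-5p: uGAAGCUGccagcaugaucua
ARF8 (chr5:14633841-14633861, plus strand): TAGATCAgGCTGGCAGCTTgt
ARF6 (chr1:10686478-10686498, minus strand): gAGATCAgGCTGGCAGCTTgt
miR160a-5p: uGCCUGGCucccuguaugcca
ARF10 (chr2:12115741-12115761, plus strand): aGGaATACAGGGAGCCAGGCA
ARF16 (chr4:14704141-14704161, minus strand): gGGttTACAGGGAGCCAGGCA
ARF17 (chr1:29274189-29274209, plus strand): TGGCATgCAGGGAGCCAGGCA
miR393a-5p: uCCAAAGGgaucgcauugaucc
TIR1 (chr3:23273727-23273748, minus strand): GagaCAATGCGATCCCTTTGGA
AFB2 (chr3:9870237-9870258, plus strand): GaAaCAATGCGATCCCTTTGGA
Paired bases were counted without G:U pairs. ARF8 and ARF6 carry miR167 sites with 18 and 17 of 21 bases paired, and their ratios of red light to dark were 2.21 and 0.676. ARF10 and ARF16 carry miR160 sites with 19 and 18 of 21 bases paired, with ratios of 1.51 and 0.818. ARF17, with 20 of 21 bases paired to miR160, had a ratio of 0.811, on the same side of 1 as ARF16. The 4 receptors with a miR393 site, TIR1, AFB1, AFB2 and AFB3, had ratios between 0.603 and 0.838. The microRNA levels were not analysed here.

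Of the partners of the pathway outside the 46 genes, ARF18 alone was called, beside 14.0% of all genes of at least 10 RPKM. Of 5 TOPLESS corepressor genes, 4 reached 10 RPKM and 0 were called, with ratios between 0.720 and 1.67. The ratio of 1.67 was that of TPR3, which was below 10 RPKM in both conditions and could not be called. Of 9 genes of the receptor ubiquitin ligase and its cullin modification, from ASK1 and CUL1 to AXR1 and CAND1, 0 were called, and all 9 had a lower value in red light, with ratios between 0.714 and 0.926, where 58.8% of all genes of at least 10 RPKM also had a lower value. The remaining receptor gene AFB4 stood at 8.73 RPKM in red light, against 9.82 RPKM in dark. Of 11 further ARF genes, 8 were below 10 RPKM in both conditions, with at most 2 reads in either column. ARF9 and ARF11 were not called. ARF18 was called lower, at 5.08 RPKM in red light (308 reads), against 19.6 RPKM in dark (1459 reads), 3.86-fold (3.41 to 4.38). It passed the minimum in dark alone.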

How the data were processed

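RNA of Arabidopsis seedlings was enriched for poly(A) RNA with oligo(dT) beads, per the labels' protocols, and the build TAIR10 is named in, and taken here per, the submitters' processing notes. An aligner, a counter and a strand setting were not given in the sources used here. For each condition the authors deposited, per the file headers, 1 column of reads and 1 of RPKM, and whether it pools both replicates is not stated. The deposited estimated counts were whole numbers, with 0.5 in place of 0, which was set back to 0 here (4164 genes in red light, 4059 in dark). The deposited RPKM values were made by the authors from these reads, the total and a length that is a multiple of 3 in nearly all genes (99.99%), so the lengths are coding lengths.

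Without columns per sample, no replicate test could be run, and calls followed a fold rule over the whole table: log2 of RPKM + 1, at least 10 RPKM in the higher condition. Ratios carry exact 95% Clopper-Pearson intervals, and shifts between related genes carry exact conditional intervals. Because PCR copies cannot be told from separate molecules here, the intervals and the floor of 3 reads cover counting error only. A floor of 3 reads equals 0.0855 RPKM in red light and 0.0697 RPKM in dark at the median coding length of 1047 bases. The members, the lists and the rules were chosen with earlier results of these data known. The naming rule covered all 46 members, gave full values to called genes, and took other pathway genes by name when called; the shared promoter run and the choice of printed sequences came after the values.

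Positions and sequences were read from the RefSeq TAIR10.1 genome and annotation, through transcript identifiers, which matched 26691 of 27416 gene models and all 46 members. The coding length equalled that of the files for 45 of them. The promoter window of IAA30 is not reported here. No member shared more than 4.50% of its 31-base words with another gene. The rules were tested on simulated data. Alternatives were TMM factors (edgeR 4.0.16), size factors (DESeq2 1.42.0), upper-quartile factors, totals without organelle genes, other minimum values, thresholds and pseudocount, and the whole counting interval. Computation used Python 3.11.15 with pandas 2.3.3, matplotlib 3.10.9, scipy 1.17.1 and numpy 2.4.6, and R 4.3.3.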

Additional observations from a re-analysis of the deposited data

How the results depend on the processing

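IAA20 and IAA29 kept their calls under all 11 alternatives. IAA6, IAA19 and ARF8 kept theirs under 10, lost only at a 4-fold threshold, where 2 members (2 of them Aux/IAA) were called lower and 0 members or ARF genes higher, beside 124 lower and 398 higher among all genes. IAA32 lost its call under 5: TMM, DESeq2 and upper-quartile scaling, the 4-fold threshold and the rule on the whole counting interval. The lower minimum values, the 1.5-fold threshold and the pseudocount of 0.1 only loosen the rule. No call could be lost under these settings, so a call kept there is no support for it. Members called higher numbered 3 with TMM or DESeq2 factors (2 of them Aux/IAA, IAA12 and IAA28), beside 9.49% and 9.39% of all genes, and 2 with upper-quartile factors or a pseudocount of 0.1 (1 of them the Aux/IAA gene IAA12), beside 8.84% and 9.09%. At a 1.5-fold threshold 10 members were called lower (8 Aux/IAA, 1 ARF, 1 TIR1/AFB) and 5 higher (3 Aux/IAA, 2 ARF), beside 1934 and 1910 of all genes. Over members of at least 10 RPKM, the Aux/IAA median ran from -0.29 to -0.22 and the ARF median from 0.10 to 0.16 under the scalings and the pseudocount tried, while TMM factors brought the median of all genes to -0.04. No called member changed sign. No paired analysis was possible because the files hold 1 column per condition and carry no replicate numbers, and leaving out a replicate was not run for the same reason. At this depth the ratios of IAA5, IAA30, IAA33 and IAA34, with under 100 reads in each column, could not be placed on either side of 1, nor could those of IAA7 and IAA27, which have more reads and ratios of 1.01 and 0.982, and IAA15 and IAA31 have too few reads for a ratio.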

Other observations

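The genome places 6 Aux/IAA genes as 3 neighbouring, divergently oriented pairs with no protein-coding gene annotated between them. IAA14 and IAA1 lie 10732 bases apart on chromosome 4. Their ratios of red light to dark were 1.85 (1.65 to 2.09) for IAA14 and 0.783 (0.678 to 0.903) for IAA1. IAA2 and IAA7 lie 12510 bases apart on chromosome 3, with ratios of 0.665 (0.641 to 0.690) for IAA2 and 1.01 (0.985 to 1.04) for IAA7. IAA3 and IAA17 lie 6388 bases apart on chromosome 1, with ratios of 0.942 (0.895 to 0.990) and 0.920 (0.892 to 0.948). Neighbours thus had different ratios in the first and second pair and like ratios in the third.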
